A study of Sus scrofa with 15 samples.

Results

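The *NLRP5*, *NLRP2*, *NLRP14*, *OOEP*, *TLE6*, *PADI6*, *KHDC3L*, *ZBED3*, *ZAR1* and *NPM2* genes are described here in 15 RNA-seq libraries of pig embryos made by somatic cell nuclear transfer (SCNT) and of their donor cells. These 10 genes were taken by their gene symbol from a table of 43294 features, of which 28224 were known genes. SCNT places a somatic nucleus into an enucleated oocyte, so the cytoplasm and its stored mRNA come from the oocyte and the genome comes from the donor. Donor cells were primary pig fetal fibroblasts (PFF), and the embryos were untreated 4-cell embryos (SCNT4c), untreated 8-cell embryos (SCNT8c), 4-cell embryos injected with *KDM4A* mRNA and cultured with GSK126 (SCNT4c-KG), and 4-cell embryos with induced *TDG* (SCNT4c-TDG), with 3 libraries in each of the 5 groups. *KDM4A* encodes a demethylase of H3K9me3 and was injected at 5 h of activation. GSK126 blocks EZH2, which methylates H3K27, and was given at 0 to 48 h. *TDG* encodes a thymine DNA glycosylase that acts in DNA demethylation. SCNT4c-TDG embryos were made from fibroblasts transfected with an inducible *TDG* vector and selected with puromycin, and they received 500 ng/ml doxycycline at 40 to 72 h. The SCNT4c embryos came from unmodified donor cells without doxycycline, so the vector, the selection, the drug and *TDG* cannot be told apart in their comparison with SCNT4c-TDG. In that with SCNT4c-KG, the injection itself, *KDM4A* and GSK126 cannot be told apart. The SCNT4c-TDG samples are numbered apart from all others, and the labels give no preparation or sequencing batch. A batch that follows the groups therefore cannot be told apart from the treatments either. Each embryo library came from a pool of 30 embryos.

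Maternal effect genes are transcribed in the growing oocyte, and their products are needed by the embryo before its own genome is active. *NLRP5*, *OOEP*, *TLE6* and *KHDC3L* encode the core of the subcortical maternal complex, a protein assembly under the surface of the oocyte and early embryo, with which PADI6, ZBED3 and NLRP2 are associated in mammals. NLRP14 is another oocyte protein of the NLRP family, ZAR1 binds maternal mRNA, and NPM2 is a histone chaperone of the oocyte nucleus. During the maternal-to-zygotic transition much of the stored mRNA is degraded, and the levels described below are mRNA levels, which do not measure the protein complex.

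The values are normalised read counts, that is, counts that the authors divided by 1 factor per library. Whole reads could be recovered from them, and they summed to 12354649 to 15390472 in SCNT4c-KG and to 17757929 to 22868038 in the other groups, so that SCNT4c-KG was the least deeply sequenced. In SCNT4c-TDG the *TDG* value was 49857 to 59944, against 939 to 2541 in SCNT4c, and *KDM4A* was at 1429 to 1476 in SCNT4c-KG against 134 to 313 in SCNT4c. The table's column names and the sample titles give the same groups, but the description field of the SCNT4c-KG samples holds names that the table uses for untreated SCNT4c columns. The groups here follow the titles. *KDM4A* was higher in the columns named for the injected embryos, but it was also at 555 to 918 in SCNT4c-TDG, which was not injected. *TDG* was at 3886 to 4738 in SCNT4c-KG, above every SCNT4c library. These values therefore do not settle the conflict in the labels. Mitochondrial genes took 8.26% to 9.42% of the signal in SCNT4c-TDG and 0.909% to 2.47% in the other embryo groups. SCNT8c replicate 3 lay nearer to SCNT4c than SCNT8c replicates 1 and 2 did for *PADI6*, *NPM2*, *NLRP5* and *OOEP*, and the comparisons that rest on it are given with and without it. A feature was tested with limma on log2(value + 1) when its mean was at least 10, and it was called changed at a Benjamini-Hochberg adjusted p under 0.05 over all features with a fold change above 2. The labels do not say that the pools came from separate experiments, so the p-values measure the spread between these libraries. An exact two-sided permutation test of 3 against 3 libraries cannot give a p below 0.1, so none is given for single genes. Lower RNA of one gene per embryo and more RNA of other genes cannot be told apart in these values.

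*PADI6*, *NPM2* and *NLRP5* were the tested members called lower in SCNT4c-TDG than in SCNT4c, and the sequences at their annotated starts are shown. Capitals mark each E-box, the letters CANNTG that basic helix-loop-helix factors of the oocyte such as FIGLA can bind. Whether these starts are used in the oocyte or embryo was not tested. Each run holds 250 bases before and 50 bases after the RefSeq start on Sscrofa11.1, on the plus strand. The windows are chr6:75969605-75969904 for *PADI6*, chr14:6288172-6288471 for *NPM2* and chr6:60375420-60375719 for *NLRP5*.
PADI6: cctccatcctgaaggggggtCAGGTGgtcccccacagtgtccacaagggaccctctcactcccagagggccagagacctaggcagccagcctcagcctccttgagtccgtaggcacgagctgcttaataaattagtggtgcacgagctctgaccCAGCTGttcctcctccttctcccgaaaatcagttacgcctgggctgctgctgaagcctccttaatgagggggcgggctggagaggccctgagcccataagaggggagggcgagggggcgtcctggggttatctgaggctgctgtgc
NPM2: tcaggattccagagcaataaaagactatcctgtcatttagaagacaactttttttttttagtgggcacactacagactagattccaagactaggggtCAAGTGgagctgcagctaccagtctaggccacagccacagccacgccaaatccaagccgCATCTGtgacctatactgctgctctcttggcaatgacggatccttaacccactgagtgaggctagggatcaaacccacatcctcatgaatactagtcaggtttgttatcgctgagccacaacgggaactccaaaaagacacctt
NLRP5: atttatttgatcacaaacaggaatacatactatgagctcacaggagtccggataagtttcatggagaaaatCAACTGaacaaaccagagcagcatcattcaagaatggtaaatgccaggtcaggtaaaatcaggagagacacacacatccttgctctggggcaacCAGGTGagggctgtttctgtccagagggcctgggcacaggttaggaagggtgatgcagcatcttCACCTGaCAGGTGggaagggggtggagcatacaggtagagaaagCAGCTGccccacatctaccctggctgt
The *PADI6* and *NPM2* windows held 2 E-boxes each and the *NLRP5* window held 5. All 10 members had at least 1 in their window, as did 67.8% of the 19556 windows of this length at protein-coding genes. None of the 10 windows held the letters TAATTG of the NOBOX element on either strand, which 6.73% of all windows held, and none held a TATA box (TATAAA; 10.9% of all windows). A match or its absence describes these letters only.

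In SCNT4c the members differed widely in level per kb of RefSeq exon. *PADI6*, which encodes an arginine deiminase family protein needed for the lattices of the oocyte cytoplasm, was the highest, with a mean of 11200 per kb (9508 to 13249). *NPM2* followed at 4371 per kb (2907 to 5728) and *OOEP* at 1584 per kb (1321 to 1908), and *NLRP5* lay far below at 33.6 per kb (30.3 to 37.8). The ranges of these 4 genes did not overlap. *KHDC3L*, *ZAR1*, *NLRP2* and *ZBED3* had means of 5.76, 4.62, 4.35 and 0.836 per kb. The ranges of *KHDC3L*, *ZAR1* and *NLRP2* overlapped, and *ZBED3* (0 to 1.86 per kb) overlapped *KHDC3L* and *ZAR1* but not *NLRP2* (2.62 to 7.45 per kb). *NLRP14* and *TLE6* were at 0 in all SCNT4c libraries.

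**Figure D1:**
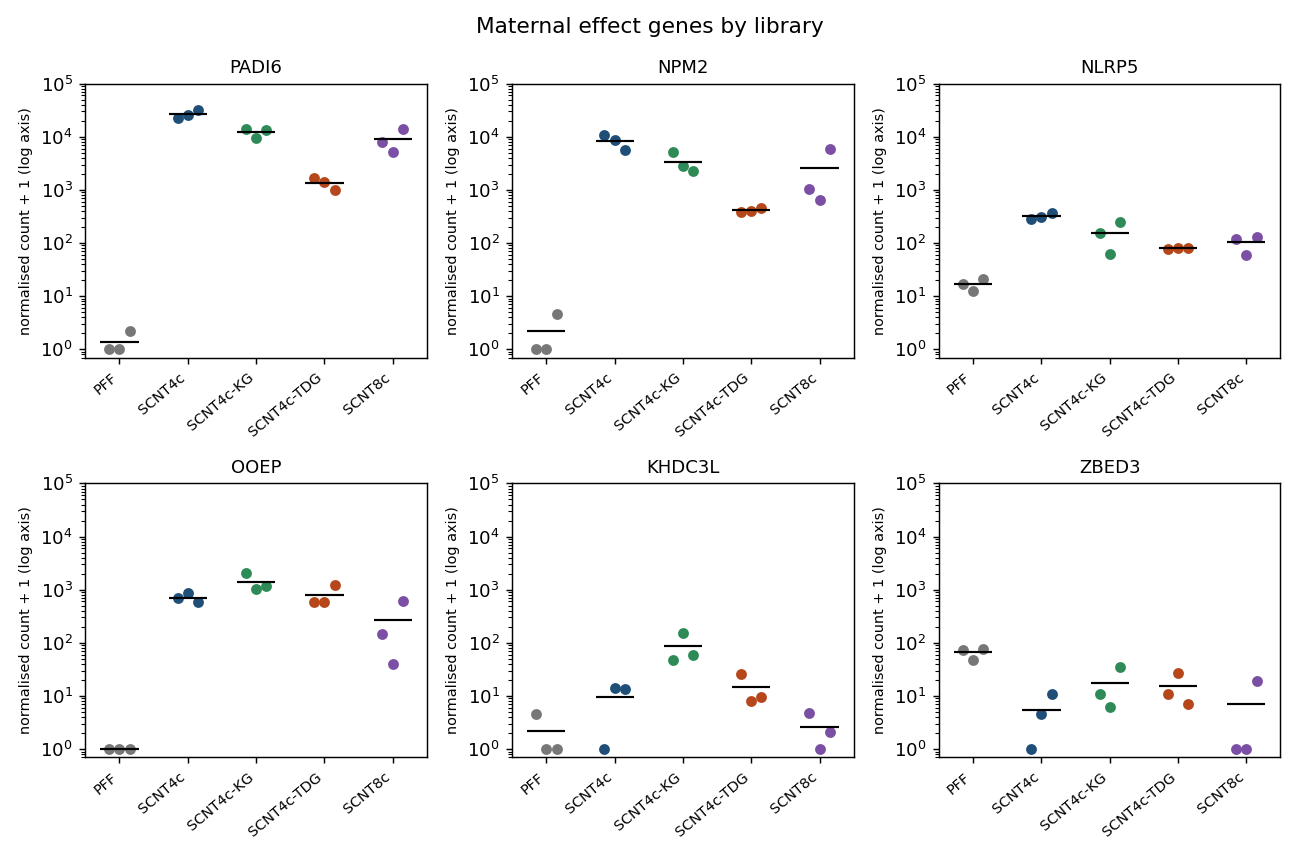
Normalised read count plus 1 on a log axis for the 6 genes that were tested, in each of the 3 libraries of PFF, SCNT4c, SCNT4c-KG, SCNT4c-TDG and SCNT8c, with a bar at the group mean. The SCNT4c-TDG libraries are the lowest of the embryos for *PADI6* (982 to 1657) and *NPM2* (391 to 450).

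The comparison of SCNT4c with PFF asks whether these mRNAs are absent from the donor cells. Of the 10 genes 5 reached the mean required for the test in this fit of 6 libraries, 4 were higher and 1 was lower in SCNT4c, and all 5 had groups that did not overlap. Of 19287 features, 78.2% were called (39.7% higher and 38.5% lower) and 84.5% had groups that did not overlap (42.4% higher and 42.1% lower). *PADI6*, *OOEP* and *NPM2*, with means of 0.397, 0 and 1.19 in PFF, entered the test through SCNT4c, and *ZBED3*, with a mean of 4.49 in SCNT4c, entered it through PFF, so the members' counts are fixed in part by the filter and are a description. *PADI6* had 1 read in the 3 PFF libraries together, and its values in SCNT4c libraries a, b and c were 22896, 26109 and 31904 (adjusted p = 7.94e-07, limma). *OOEP*, which encodes a KH-domain-related protein of the complex, was at 0 in PFF and at 681, 853 and 590 in SCNT4c, at least 192-fold higher with a floor of 3 reads per PFF library (adjusted p = 1.07e-06, limma). *NPM2* had 3 reads in PFF in all, and *NLRP5* was at 15.9, 11.5 and 20.3 in PFF against 289, 313 and 360 in SCNT4c, a log2 fold change of 4.28 ± 0.28 (SE; adjusted p = 2.23e-05, limma). *ZBED3*, whose product is a zinc finger protein associated with the complex in mouse, ran the other way, with 72.1, 45.8 and 76.3 in PFF and 0, 3.50 and 9.96 in SCNT4c (log2 fold change -4.13 ± 0.88 SE, adjusted p = 0.00493, limma). No library of one group reached the range of the other for any of these 5 genes.

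Of the 6 members tested in the embryos, *PADI6*, *NPM2* and *NLRP5* fell in SCNT4c-TDG and 0 were called higher. *PADI6* was at 1657, 1385 and 982 in SCNT4c-TDG, and every library lay below every SCNT4c library, with a group mean of 1341.5 ± 339.5 (SD, n = 3) against 26970 ± 4565 (SD, n = 3), 20.1-fold lower on the means. Its log2 fold change was -4.35 ± 0.34 (SE; adjusted p = 4.93e-07, limma). *NPM2* was at 391, 398 and 450 against 10986, 8590 and 5576 in SCNT4c, 20.3-fold lower on the means (log2 fold change -4.29 ± 0.60 SE, adjusted p = 8.53e-05, limma). *NLRP5* was at 76.1, 80.5 and 79.6, a log2 fold change of -2.01 ± 0.53 (SE; adjusted p = 0.00879, limma), and its groups did not overlap either. The other tested genes were not called: *OOEP* was at 574, 588 and 1223 (log2 fold change 0.09, adjusted p = 0.934), *KHDC3L*, encoded beside *OOEP*, was at 25.1, 6.90 and 8.42 (1.12, adjusted p = 0.468), and *ZBED3* was at 10.03, 26.1 and 6.12 (1.81, adjusted p = 0.303). Of 18942 features, 33.3% were called in this comparison (15.7% higher and 17.6% lower), against 3 of 6 members, all lower. Groups did not overlap for 58.4% of features (25.2% higher and 33.2% lower), against the same 3 of 6 members. The median log2 fold change was -0.96 over the 6 members and -0.26 over all features tested. The 3 calls were kept under every alternative tried in this comparison. The mitochondrial share was higher in SCNT4c-TDG, as given above, and the summed oocyte, fibroblast, cumulus and stress lists given below were lower than in SCNT4c. Their part in the result was not tested.

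**Figure D2:**
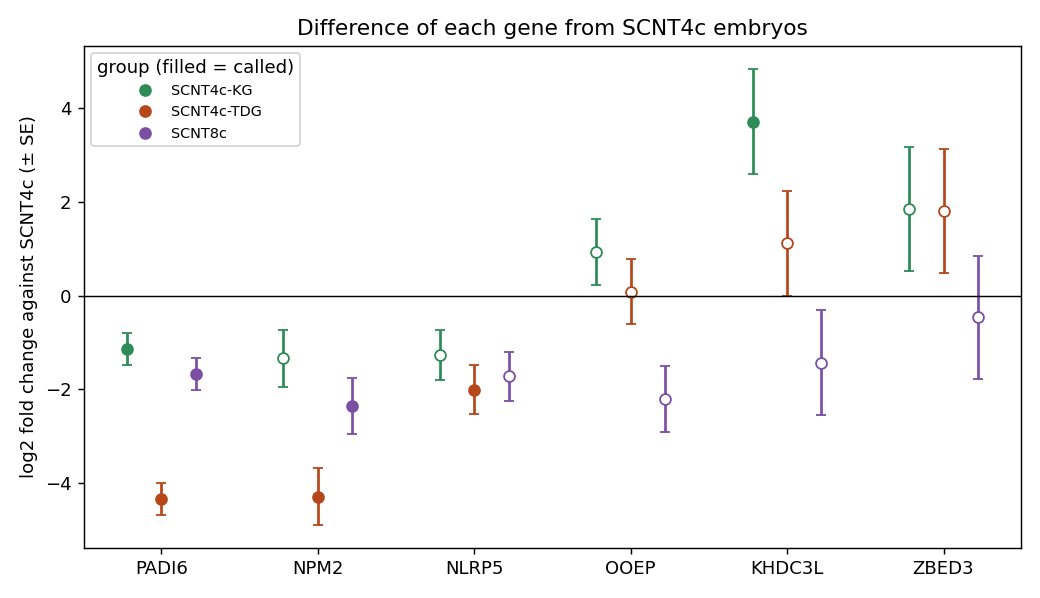
Log2 fold change against SCNT4c with its standard error for the 6 tested genes, for SCNT4c-KG, SCNT4c-TDG and SCNT8c, with filled points for called genes and open points for the others. *PADI6* and *NPM2* lie at -4.35 and -4.29 in SCNT4c-TDG, and *KHDC3L* in SCNT4c-KG lies at 3.72.

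Of the same 6 tested members, SCNT4c-KG had 1 called lower, *PADI6*, and 1 called higher, *KHDC3L*. *PADI6* was at 14115, 9391 and 13416, 2.19-fold lower than SCNT4c on the means (log2 fold change -1.14 ± 0.34 SE, adjusted p = 0.0159, limma). *KHDC3L*, which encodes a KH-domain-related protein as *OOEP* does, was at 47.4, 149.7 and 58.4 against 0, 13.1 and 12.5 in SCNT4c, with 29 to 118 reads in SCNT4c-KG and 0 to 15 in SCNT4c (log2 fold change 3.72 ± 1.13 SE, adjusted p = 0.0177, limma). *KHDC3L* reached the mean required for the test through SCNT4c-KG, whose mean was 85.2 against 8.52, 13.5 and 1.60 in SCNT4c, SCNT4c-TDG and SCNT8c, so its calls as higher in SCNT4c-KG are not independent of that filter. The groups of these genes did not overlap. *OOEP* was at 2040, 1018 and 1158 (log2 fold change 0.94, adjusted p = 0.304), *NLRP5* at 150, 62.2 and 248 (-1.26, adjusted p = 0.0706) and *NPM2* at 5227, 2805 and 2223 (-1.34, adjusted p = 0.0916), none of them called, although their groups did not overlap. *ZBED3* was at 9.80, 5.08 and 34.2, overlapping SCNT4c. In this comparison 37.2% of features were called (17.6% higher and 19.6% lower), so 2 of 6 members lay near the share of all features. Groups did not overlap for 53.9% of features (24.3% higher and 29.6% lower), against 5 of 6 members, 2 higher and 3 lower. *KHDC3L* is among these counts, which therefore say nothing of the members as a set. The *KHDC3L* call was lost without SCNT4c library a (adjusted p = 0.0825) and without SCNT4c-KG replicate 2 (0.0744), and the *PADI6* call was lost without SCNT4c library c (0.0610) and without SCNT4c-KG replicate 2 (0.0751, both limma). In DESeq2 the *PADI6* fold change fell below the limit (log2 -0.98), the *KHDC3L* call was lost with edgeR (adjusted p = 0.0621) and with a pseudocount of 0.1 (0.0636, limma), and *NPM2* was called in a fit of these groups alone (0.0101, limma). *NLRP5* was called without SCNT4c-KG replicate 3 (log2 -1.71, adjusted p = 0.0294, limma) and lay at -0.72 without replicate 2 (0.299). The summed oocyte, fibroblast and cumulus lists given below were also lower in SCNT4c-KG than in SCNT4c. Their part in the *PADI6* result was not tested.

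SCNT4c-KG, SCNT4c-TDG and SCNT8c were all compared with the same SCNT4c libraries, so SCNT4c-TDG and SCNT4c-KG were also compared directly. *PADI6* was 9.17-fold lower and *NPM2* 8.28-fold lower on the means in SCNT4c-TDG than in SCNT4c-KG, with log2 fold changes of -3.21 ± 0.34 (SE; adjusted p = 3.97e-05, limma) and -2.95 ± 0.60 (SE; adjusted p = 0.00395, limma). Their groups did not overlap, and both calls held under every alternative tried. *KHDC3L* was lower in SCNT4c-TDG by 2.60 on the log2 scale without passing (adjusted p = 0.132, limma), with groups that did not overlap, and was called with a pseudocount of 10 (0.0161) and in a fit of these groups alone (0.0153). For *NLRP5* (-0.74, adjusted p = 0.372) and *OOEP* (-0.85, adjusted p = 0.453) the difference between the 2 treatments did not pass. Of all features, 16.2% were called (7.07% higher and 9.13% lower) against 2 of 6 members, and 44.4% had groups that did not overlap (19.8% higher and 24.6% lower) against 3 of 6 members, all lower, of which *KHDC3L* entered the test through SCNT4c-KG.

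In SCNT8c, *PADI6* and *NPM2* were called lower than in SCNT4c, where 5.79% of features were called (2.62% higher and 3.16% lower). That share depended on single libraries, since 1096 of 18942 features were called with all of them, 6133 of 18990 without SCNT8c replicate 3, and 31 to 234 without any one of the others. Groups did not overlap for 2 of 6 members, *PADI6* and *NLRP5*, and for 23.5% of features (9.24% higher and 14.3% lower). *PADI6* was at 7817, 5263 and 14234 (log2 fold change -1.68 ± 0.34 SE, adjusted p = 0.0207, limma), below every SCNT4c library. *NPM2* was at 1019, 648 and 5928 (-2.36 ± 0.60 SE, adjusted p = 0.0375, limma), and replicate 3 reached into the SCNT4c range. *NLRP5* at 119, 58.2 and 129 (-1.72, adjusted p = 0.0628) and *OOEP* at 144, 38.2 and 612 (-2.21, adjusted p = 0.0678) were not called, although *NLRP5* was called with a pseudocount of 10 (0.0467), a minimum mean of 50 (0.0454) and DESeq2 (0.0333). Without SCNT8c replicate 3, where 6133 of 18990 features were called, all 4 genes were called, with a log2 fold change of -3.22 for *OOEP* (adjusted p = 0.000312, limma) and -1.93 for *NLRP5* (adjusted p = 0.0122, limma). The *PADI6* and *NPM2* calls were lost without SCNT4c library b or c or without SCNT8c replicate 1 or 2, and the *NPM2* call also without SCNT4c library a, with all features above 0 (adjusted p = 0.0584, limma), with edgeR (0.138) and with DESeq2 (0.0566). In a fit of SCNT8c and SCNT4c alone 0 of these genes were called (limma; *PADI6* and *NPM2* adjusted p = 0.198), and that fit called 0 of all features, with 3582 at an unadjusted p under 0.05. *KHDC3L* (3.73, 0 and 1.06) and *ZBED3* (0, 0 and 18.0) in SCNT8c overlapped SCNT4c.

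Set against SCNT8c, the treated 4-cell embryos differed from the 8-cell embryos in *OOEP* and *KHDC3L* in one case and in *PADI6*, *NPM2* and *OOEP* in the other. SCNT4c-KG had higher *OOEP* (log2 fold change 3.15 ± 0.70 SE, adjusted p = 0.00368, limma) and higher *KHDC3L* (5.15 ± 1.13 SE, adjusted p = 0.00326, limma; tested through its SCNT4c-KG level, as above), both with groups that did not overlap, where 28.2% of features were called (16.4% higher and 11.8% lower) and 36.7% did not overlap (21.7% higher and 15% lower). Without SCNT8c replicate 3 *NPM2* was also higher in SCNT4c-KG (1.97, adjusted p = 0.000703, limma). SCNT4c-TDG had lower *PADI6* (-2.67 ± 0.34 SE, adjusted p = 5.32e-05, limma), lower *NPM2* (-1.93 ± 0.60 SE, adjusted p = 0.0280) and higher *OOEP* (2.30 ± 0.70 SE, adjusted p = 0.0253), where 24.7% of features were called (13.7% higher and 11% lower) and 40.6% did not overlap (22.2% higher and 18.4% lower). *OOEP* in SCNT4c-TDG overlapped SCNT8c replicate 3. The *NPM2* and *OOEP* calls were lost in the fit of SCNT4c-TDG and SCNT8c alone (adjusted p = 0.0933 and 0.0996, limma). *NPM2* was also not called without any one SCNT4c-TDG library or without SCNT8c replicate 3, and *OOEP* without SCNT4c-TDG replicate 2 or 3, without SCNT8c replicate 1 or 2, or with edgeR. The *PADI6* call was kept in all of these.

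*OOEP* and *KHDC3L* lie side by side on chromosome 1 with 7823 bases between them (KHDC3L at 52996706 to 52999074 on the plus strand, OOEP at 53006898 to 53007877 on the minus strand), and *DPPA5*, a gene of the same protein family, ends 9109 bases before *KHDC3L*. The RefSeq exons of *OOEP* cover 447 bases. *DPPA5* is in the list of paralogs and was called in all 3 comparisons with SCNT4c: it was at 29144 to 56717 in SCNT4c-KG and 10085 to 14912 in SCNT4c-TDG against 1769 to 3751 in SCNT4c, with log2 fold changes of 3.75 ± 0.36 (SE; adjusted p = 2.30e-06, limma) and 2.27 ± 0.36 (SE; adjusted p = 0.000262, limma). In SCNT8c it was at 615 to 1316, lower by 1.56 on the log2 scale (adjusted p = 0.0298, limma). The fit of SCNT8c and SCNT4c alone called 0 of all features, so the SCNT8c call of *DPPA5* was not kept there. All 3 neighbours had their highest group mean in SCNT4c-KG and their lowest embryo mean in SCNT8c. *KHDC3L* entered the test through its SCNT4c-KG level, and *OOEP* was not called in SCNT4c-KG or SCNT8c against SCNT4c. The share of all features with this order was not computed, so the order is a description only. Over the 12 embryo libraries the Pearson r of log2 values was 0.628 for *OOEP* and *KHDC3L*, and 0.621 for *OOEP* and *ZBED3*, which lies on chromosome 2.

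**Figure D3:**
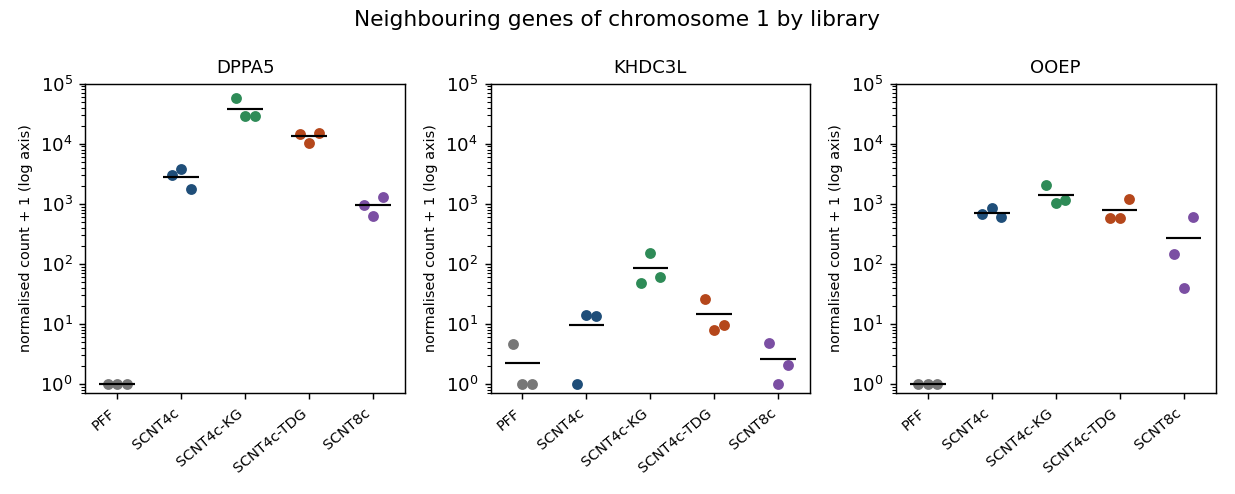
Normalised read count plus 1 on a log axis for *DPPA5*, *KHDC3L* and *OOEP* in each library of the 5 groups, with a bar at the group mean. The SCNT4c-KG mean is the highest for all 3 genes (38403, 85.2 and 1406), and *OOEP* in SCNT8c spreads from 38.2 to 612.

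Across the 12 embryo libraries *PADI6* and *NPM2* had the highest correlation of log2 values among the 6 tested genes, a Pearson r of 0.925, and *NLRP5* correlated with them at 0.769 and 0.758. The genes most like *NPM2*, of 5457 named genes with a mean of at least 100, were *AGPAT4* (r = 0.987) and *WNT3* (0.985). *RNF20* (0.952) and *ITGAD* (0.935) were most like *NLRP5*. For *OOEP* they were *FREM1* (0.981) and *RRM2B* (0.966), for *KHDC3L* *NUP88* (0.925) and *NAT10* (0.914), and for *ZBED3* *UBE2V2* (0.863) and *CCNB1* (0.843). These values describe the 12 libraries, which share groups, and carry no test.

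*NLRP2*, *NLRP14*, *TLE6* and *ZAR1* had a mean under 10 and were not tested. *NLRP2*, which encodes an NLRP protein of the oocyte, had 36, 13 and 12 reads in SCNT4c, 0 to 2 in SCNT4c-KG, 2 to 10 in SCNT4c-TDG and 4 to 16 in SCNT8c. *ZAR1* had 2, 15 and 7 reads in SCNT4c and at most 2 in any other library. *NLRP14* had 0 reads in PFF, SCNT4c and SCNT8c and up to 5 in SCNT4c-KG and 7 in SCNT4c-TDG, and *TLE6*, a corepressor-family protein of the complex core, had 1 to 2 reads in each SCNT4c-KG library and 0 elsewhere. The *NLRP2* libraries of SCNT4c lay above all of SCNT4c-KG and SCNT4c-TDG. These differences rest on few reads, and a count of 0 allows up to 3 reads, a value of 2.30 to 4.90 in the embryo libraries, counting error only. When all features above 0 were tested, *ZAR1* was called lower in SCNT4c-KG (adjusted p = 0.0158, limma) and in SCNT4c-TDG (0.0314) than in SCNT4c. *TLE6*, with 1 to 2 reads per library, was called higher in SCNT4c-KG than in SCNT4c (0.00826), SCNT4c-TDG (0.0174) and SCNT8c (0.0105, all limma), where it had 0 reads. *TLE6* entered that test through SCNT4c-KG alone, so its calls are not independent of the filter. The loci of all 4 genes hold assembled transcripts and other known entries whose reads cannot be assigned to the member. The assembled transcript at the *TLE6* locus was at 43.2 to 82.8 in SCNT4c, 26.1 to 29.9 in SCNT4c-KG, 0.765 to 6.90 in SCNT4c-TDG and 2.49 to 25.2 in SCNT8c, and those at the *NLRP2* locus summed to 26.6 to 41.9 in SCNT4c, 1.42 to 44.4 in SCNT4c-KG, 3.84 to 11.5 in SCNT4c-TDG and 8.31 to 85.9 in SCNT8c. At the *NLRP14* locus they summed to 683 to 746 in SCNT4c, where *NLRP14* itself had 0 reads. At the *ZAR1* locus they summed to 103 to 147 in SCNT4c, 98.3 to 157 in SCNT4c-KG and 104 to 170 in SCNT4c-TDG. With these added, *ZAR1* was not called in SCNT4c-KG (log2 -0.13, adjusted p = 0.831, limma) or SCNT4c-TDG (-0.04, 0.958). *TLE6* with its transcript added was not called in SCNT4c-KG (-0.89, 0.468) and was called lower in SCNT4c-TDG (-4.13, 0.00317), both against SCNT4c.

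**Figure D4:**
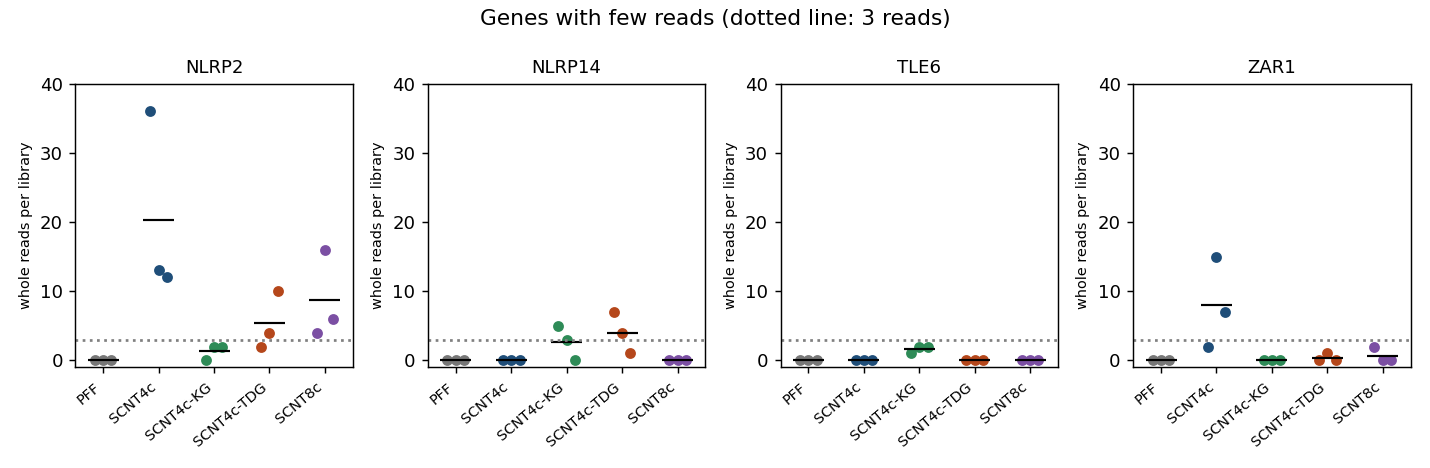
Whole reads per library for the 4 genes that were not tested, in the 5 groups, with a bar at the group mean and a dotted line at 3 reads. *NLRP2* reaches 36 reads in SCNT4c, and *TLE6* never passes 2.

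Of 19 other NLRP and related genes, 17 were in the table and 6 were tested. *NLRP11*, which encodes an NLRP protein, was at a mean of 557 in SCNT4c-KG and 1739 in SCNT4c (log2 fold change -1.81 ± 0.55 SE, adjusted p = 0.0181, limma) and was the 1 gene of the list called there, and 0 were called in SCNT4c-TDG. In SCNT8c the 1 call was again *NLRP11* (-2.91, adjusted p = 0.0189, limma), named here after its value was seen. It was not kept in the fit of SCNT8c and SCNT4c alone, which called 0 of all features. Of 10 tested paralogs of the members, 2 rose and 1 fell in SCNT4c-KG and 2 rose and 3 fell in SCNT4c-TDG. Besides *DPPA5*, *TLE4* rose in both (log2 2.35 and 1.16), and *TLE2* fell in both (-1.50 and -3.21), while *NPM3* (-3.98) and *NPM1* (-1.15), of the nucleoplasmin family as *NPM2*, fell in SCNT4c-TDG. The median log2 fold change of the list was 1.29 and 0.44, against -0.30 and -0.26 for all features.

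Of 37 other mammalian maternal effect genes, 21 were tested. In SCNT4c-KG 4 rose and 5 fell, and in SCNT4c-TDG 6 rose and 8 fell, with medians of 0.28 and 0.34 against -0.30 and -0.26 for all features. *DPPA3*, a maternal chromatin protein, rose in both (log2 2.28 and 2.85), as did *KDM1B*, a histone demethylase of the oocyte (2.27 and 4.46), and *DNMT1*, the maintenance DNA methyltransferase (5.63 and 2.02), which was at only 1.66 to 11.8 in SCNT4c. *YTHDF3*, an RNA-binding reader protein, rose by 3.82 on the log2 scale in SCNT4c-TDG. *RNF114* (-3.96 and -5.52) and *DAZL*, a germ cell RNA-binding protein (-3.41 and -3.79), and *BNC1* (-2.39 and -2.38) fell in both, and *ZFP36L2*, an mRNA-decay protein, fell in SCNT4c-TDG (-3.48).

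Marker lists of the oocyte and of other cells were summed in each library. The 8 oocyte markers in the table, of 10 listed, summed to 150904 to 184686 in SCNT4c, 39539 to 68593 in SCNT4c-KG, 21662 to 28954 in SCNT4c-TDG and 47126 to 88433 in SCNT8c, with *GDF9*, *BMP15* and *MOS* at 0 in all embryos. *WEE2* and *ZP4* made up most of this sum, with means of 83899 and 74784 in SCNT4c. Of 5 tested, 1 rose and 3 fell in SCNT4c-KG and 2 fell in SCNT4c-TDG. *WEE2*, an oocyte kinase (log2 -2.16 and -2.79), and *ZP4*, a zona pellucida gene (-1.14 and -2.76), fell in both, *KIT* fell in SCNT4c-KG (-1.73), and *ZP3*, another zona pellucida gene, rose there (4.74). The 15 fibroblast markers summed to 4062 to 5279 in SCNT4c and to 1188 to 2421 in the other embryo groups, with *COL5A1* at 0 in all embryos and *PDGFRA* at 0 in all embryos and in PFF. Of 10 tested, 2 rose and 5 fell in SCNT4c-KG and 1 rose and 4 fell in SCNT4c-TDG. *DCN* (-5.71 and -4.14) and *COL1A2* (-2.44 and -2.50) fell in both treatments, *TWIST1* (-2.10 and -2.29) did so too, *COL3A1* (-2.21) fell in SCNT4c-KG, *S100A4* rose in both (4.83 and 4.69) and *THY1* in SCNT4c-KG (2.76). The 11 cumulus and granulosa markers in the table, of 12, summed to 1440 to 1866 in SCNT4c, 998 to 1272 in SCNT4c-KG, 543 to 666 in SCNT4c-TDG and 1442 to 1958 in SCNT8c, with *PTX3*, *AMH* and *FOXL2* at 0 in all embryos. Of 6 tested, 2 rose and 2 fell in SCNT4c-KG and 1 rose and 1 fell in SCNT4c-TDG. *NR5A2* rose in both treatments (4.75 and 3.08), *STAR* rose (2.98) and *GJA1* fell (-2.72) in SCNT4c-KG, and *INHBA* fell in both (-1.06 and -1.54). *NR5A2* entered the test through SCNT4c-KG (mean 62.4, against 2.12, 19.5 and 1.21 in SCNT4c, SCNT4c-TDG and SCNT8c). *GJA1* entered it through SCNT4c (31.8, against 7.34, 7.13 and 7.86 in SCNT4c-KG, SCNT4c-TDG and SCNT8c). Their calls in SCNT4c-KG are therefore not independent of the filter. The 10 apoptosis and stress genes summed to 6100 to 8982 in SCNT4c, 8569 to 9345 in SCNT4c-KG, 6574 to 15968 in SCNT8c and 2980 to 4688 in SCNT4c-TDG, where *GADD45A* (-1.89) and *HSPA5* (-1.12) fell, and *GADD45B* rose in SCNT4c-KG (1.75).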

How the data were processed

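RNA-seq of 12 pig SCNT embryo pools and 3 PFF libraries was analysed, with groups taken from the sample titles. The deposited signal values are counts that the authors divided by 1 factor per library. Per the labels, reads were trimmed with Trimmomatic 0.39, aligned to Sscrofa11.1 with STAR 2.5.3a, assembled with StringTie 2.1.2 and counted with HTSeq, after cDNA amplification with a SMARTer kit. The strand setting of the counting is not given in the sources used here. Values were whole multiples of 1 read for 100% of entries (tolerance 0.01), and 241 repeated gene IDs with identical values were removed. limma 3.58.1 (R 4.3.3) was run on log2(value + 1) with an intensity trend, for features with a mean of at least 10, on the 12 embryo libraries together and on SCNT4c and PFF alone. The added 1 affects the fold changes of low genes. Adjusted p-values are Benjamini-Hochberg values over all features, with calls below 0.05 where the fold change also exceeded 2. edgeR 4.0.16 and DESeq2 1.42.0 on the recovered reads, other pseudocounts, filters and scalings, a replicate block, and each library left out were alternatives. The SCNT4c libraries are called a, b and c because the labels number them in conflicting ways, and the columns were assigned to SCNT4c and SCNT4c-KG by the titles, against the description field of the SCNT4c-KG samples. Library totals limit precision, as a count of 0 allows 3 reads. The members and gene lists were chosen with earlier results of these data known. All 10 members were described, the called genes of each list with the largest changes were named, up to 3 in each direction in each treatment, and the 2 genes most like each tested member, which are not reported here for *PADI6*. Summaries were made with Python 3.11.15, numpy 2.4.6, pandas 2.3.3 and matplotlib 3.10.9.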

Additional observations from a re-analysis of the deposited data

How the results depend on the processing

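The *PADI6* and *NPM2* falls in SCNT4c-TDG against SCNT4c and SCNT4c-KG and the *NLRP5* fall against SCNT4c kept their direction and their call under every alternative tried, as did the *PADI6* fall against SCNT8c, and log2 fold changes of *PADI6* in SCNT4c-TDG against SCNT4c ran from -4.52 to -3.96. The number of members called in SCNT4c-KG against SCNT4c, 2 here, was 1 with a pseudocount of 0.1, a minimum mean of 50, edgeR or DESeq2, 4 with all features above 0, and 0 to 3 with each library left out. In SCNT8c against SCNT4c the 2 calls became 1 with all features above 0 or edgeR, 0 in a fit of the 2 groups alone, and 0 to 4 with each library left out. In SCNT4c-KG against SCNT8c a minimum mean of 50 left 1. In SCNT4c-TDG against SCNT8c a fit of the 2 groups alone left 1 of 3, and leaving out each library left 1 to 2. In SCNT4c against PFF the sum with assembled transcripts of each locus raised 5 calls to 8; at the loci with other genes such sums cannot be assigned to the member. Apart from the filters, which change the genes tested, the cause of these moves was not tested.

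The direction of genes that were not called turned as follows. *OOEP* in SCNT4c-TDG against SCNT4c was -0.03 without SCNT4c library c, and -0.27 (without SCNT4c-TDG replicate 3) to 0.28 with each library left out, and *KHDC3L* was -0.14 (without SCNT4c library a) to 1.77. *ZBED3* in SCNT8c against SCNT4c was 0.018 with a pseudocount of 10, 0.19 with quantile normalization, 0.45 with edgeR, 0.49 with DESeq2 and -1.40 to 0.33 with each library left out. In SCNT4c-TDG against SCNT4c-KG *ZBED3* was 0.29 with the same total in each library, 0.38 with the same total of nuclear features, and -0.60 to 0.39 with each library left out, 0.07 without SCNT4c-TDG replicate 1. *NLRP5* in SCNT4c-TDG against SCNT8c was 0.032 with the same total of nuclear features. That scaling and a fit of the 3 numbered groups were chosen after seeing the data.

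The scaling moved all features: the median log2 fold change of SCNT4c-TDG against SCNT4c was -0.26 here, 0.0026 with the same total and 0.11 with the same total of nuclear features, and the share of calls that were lower went from 52.9% to 39.96% with the latter. That share went from 54.7% to 43.0% with quantile normalization, 28.2% with DESeq2 and 20.5% with edgeR in SCNT8c against SCNT4c, from 56.4% to 36.2% and 30.8% with the 2 totals in SCNT4c-TDG against SCNT4c-KG, and from 44.5% to 32.2% with the nuclear total in SCNT4c-TDG against SCNT8c. In SCNT4c against PFF the median moved from 0.07 to 0.67 with the same total, 0.96 with edgeR and 1.01 with DESeq2. The replicate numbers showed no clear pairing. Deviations of libraries with the same number correlated at -0.061 to 0.195 over 9 pairs, and those with different numbers at -0.183 to 0.157. With 3 libraries per group these correlations cannot exclude a shared batch. With a replicate block the numbers of members called stayed at 2 in SCNT4c-TDG against SCNT4c-KG, 2 in SCNT4c-KG against SCNT8c and 3 in SCNT4c-TDG against SCNT8c. No paired analysis was possible because of conflicting numbers in the labels for comparisons with SCNT4c. Depth limits *NLRP2*, *NLRP14*, *TLE6* and *ZAR1*, with few reads or 0.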

Other observations

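At the *TLE6* locus on chromosome 2 the annotation places a long noncoding RNA gene, LOC110259369, 42 bases from the *TLE6* start on the opposite strand (75550719 to 75563109, plus strand). This gene was singled out after its values were seen. It was at 0 in PFF and at 622, 742 and 565 in SCNT4c, at 134, 148 and 76.9 in SCNT4c-KG, at 76.9, 102 and 120 in SCNT4c-TDG and at 150, 123 and 982 in SCNT8c, while *TLE6* had at most 2 reads in any library. SCNT4c exceeded every treated library, and SCNT8c replicate 3 stood above all of SCNT4c. Without a stated strand setting in the counting, reads of overlapping transcripts at this locus cannot be told apart. *TLE2*, a paralog of *TLE6*, was at 2624 to 5104 in SCNT4c, 846 to 2351 in SCNT4c-KG and 344 to 408 in SCNT4c-TDG.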
